A study of Mus musculus with 15 samples.

Results

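Genes of the choroid plexus epithelium, 10 in number, were followed across bulk RNA sequencing of mouse cerebellum. They were Ttr, Kcnj13, Cldn2, Sostdc1, Folr1, Kl, Aqp1, Clic6, F5 and Enpp2, chosen by name from a list and matched by symbol to the Ensembl identifiers of the count table. All 10 were found among its 55487 mouse genes, and all 10 passed the filter on low counts that left 24989 genes for testing. The 15 libraries came from 4 groups. YG8JR mice, a model of Friedreich ataxia, made up 3 of them, and wild-type (WT) mice the other (n = 3). Untreated YG8JR mice (n = 3) were set beside YG8JR mice given mPPL-001 (n = 5) and YG8JR mice given mock cells (n = 4). The mPPL-001 cells were Sca1+ blood stem and progenitor cells from YG8JR marrow, electroporated with Cas9 protein and a pair of guide RNAs. Mock cells came from the same kind of marrow and had the guides without Cas9. Recipients of either were irradiated with 7 Gy at 2.5 to 3 months of age and had antibiotics for 1 month. Every library is labelled as taken 6 months after transplant, the untreated and WT ones included, and the study set out to examine protection of nervous tissue by mPPL-001. The share of donor cells in the tissue was not measured here.

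The choroid plexus is a frond of tissue in the brain's ventricles, one of them lying under the cerebellum. Its single layer of epithelial cells sits on leaky, fenestrated capillaries, secretes cerebrospinal fluid and forms the barrier between blood and that fluid. The epithelium makes and exports carrier proteins, moves ions, water and vitamins across its surface, and is sealed by tight junctions. It is a separate tissue from the cerebellar cortex, and bulk RNA of a dissected cerebellum holds as much of it as was left attached. In such RNA, fewer epithelial cells and less RNA per cell cannot be told apart.

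The 10 genes varied together from library to library, and libraries of the same transplanted group lay far apart. Promoter sequences were at hand for 5 of the 10 (Kcnj13, F5, Kl, Aqp1 and Cldn2), in the RefSeq table of the GRCm38.p6 build, as 300 bases around each annotated start. The TATA box letters TATAAA, searched on both strands, were found in Kcnj13 and Cldn2, 29 and 35 bases upstream of the annotated start, and in 13.6% of all 32851 promoters of the table. The letters TAATCC, the core that OTX-type homeodomain proteins bind, were found in none of the 5 and in 7.06% of all promoters. No match says only that these letters are not in these windows. The Kcnj13 promoter (chr1:87394680-87394979, minus strand) and the Cldn2 promoter (chrX:139800558-139800857, plus strand) are shown because they hold such a match among genes that moved together, with the TATAAA letters in capitals.
Kcnj13: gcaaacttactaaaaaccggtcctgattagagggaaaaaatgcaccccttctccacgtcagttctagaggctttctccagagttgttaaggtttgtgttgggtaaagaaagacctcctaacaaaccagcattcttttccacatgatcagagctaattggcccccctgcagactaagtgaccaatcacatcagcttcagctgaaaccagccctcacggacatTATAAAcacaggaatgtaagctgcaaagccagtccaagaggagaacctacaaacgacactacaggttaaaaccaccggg
Cldn2: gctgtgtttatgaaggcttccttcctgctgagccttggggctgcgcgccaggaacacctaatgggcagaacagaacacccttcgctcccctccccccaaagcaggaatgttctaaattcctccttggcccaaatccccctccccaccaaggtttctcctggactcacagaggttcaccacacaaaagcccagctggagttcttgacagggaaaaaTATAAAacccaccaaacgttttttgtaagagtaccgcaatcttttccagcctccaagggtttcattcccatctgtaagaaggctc

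Library totals ran from 16847839 to 38760039 counts. Levels are given as CPM, counts scaled to a common total, with library sizes adjusted by TMM normalization. The labels place 8 libraries in a batch A and 7 in a batch B, with both batches in every group, and 32% of all genes tested differed between them. Summed markers of granule neurons, the main cell of the cerebellar cortex, came to 208 to 958 CPM in the 8 libraries of A and 2510 to 5481 CPM in the 7 of B. Gabra6, a GABA receptor subunit that defines these neurons, was nearly absent (0.0592 to 0.575 CPM) in mPPL-001 replicates 1 and 4, mock replicate 2 and YG8JR replicate 3, all of A, against 209.7 to 494 CPM in B. The rest of A was also under B, with 4.92 CPM in YG8JR replicate 2, 7.61 in mock replicate 3, 12.3 in WT replicate 3 and 72.8 in mPPL-001 replicate 3. By that marker, cerebellar cortex is barely seen in the 4 lowest libraries, whatever their label. These 4 are low in the choroid plexus genes, while mock replicate 3 held a sum of 6895 CPM of the 10 genes. WT replicates 1 and 2 and mPPL-001 replicate 2 had the highest Gabra6 levels of all (494, 473 and 365 CPM). They had the 3 lowest sums of the 10 genes. Without Ttr and Enpp2 their sums were not the 3 lowest, at 19.4, 26.5 and 37.9 CPM in that order. Those of mPPL-001 replicates 1, 3 and 4, mock replicate 2 and YG8JR replicate 3 were then 16.1 to 26.2 CPM. Whether Gabra6 and the 10 genes go together was not tested. Summed markers of brainstem neurons came to 451 to 1822 CPM in A and 32.7 to 250.2 CPM in B. The library labelled WT replicate 3, of batch A, was not separated from YG8JR. Over 12408 genes its slope on the WT difference of batch B was 0.11, where 1 would be the full difference. The 7 YG8JR libraries of batch A had slopes of -0.26 to 0.31. As the batches differed in granule and brainstem neuron markers, the slope cannot tell a wrong label from a difference in the tissue taken. The main edgeR comparison of YG8JR with WT is therefore given with and without that library. Other results for WT include it unless stated. That each library came from its own animal is not said in the labels. The p-values here set a difference against the variation among these libraries, which may not be that among animals.

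Ttr encodes transthyretin, the carrier of thyroid hormone and retinol-binding protein that the choroid plexus exports into cerebrospinal fluid. In the mock group it stood at 2800 CPM in replicate 1, 4.91 CPM in replicate 2, 3757 CPM in replicate 3 and 2558 CPM in replicate 4. In the mPPL-001 group it stood at 6.74, 13.0, 2.53, 3.69 and 4313 CPM in replicates 1 to 5. Each transplanted group thus had libraries at both ends of the scale, with 3 high and 1 low in mock and 1 high and 4 low in mPPL-001. Untreated YG8JR replicates 1 to 3 stood at 576, 290.0 and 2.72 CPM, and WT replicates 1 to 3 at 26.5, 46.2 and 597 CPM. The highest library held 1702 times the level of the lowest, and both were mPPL-001 libraries. Per kilobase of annotated exon, Ttr was also the most abundant of the 10 genes at its highest (3636 CPM per kilobase), ahead of Enpp2 (525) and of the other 8 (7.67 for Cldn2 to 34.3 for Clic6).

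**Figure D1:**
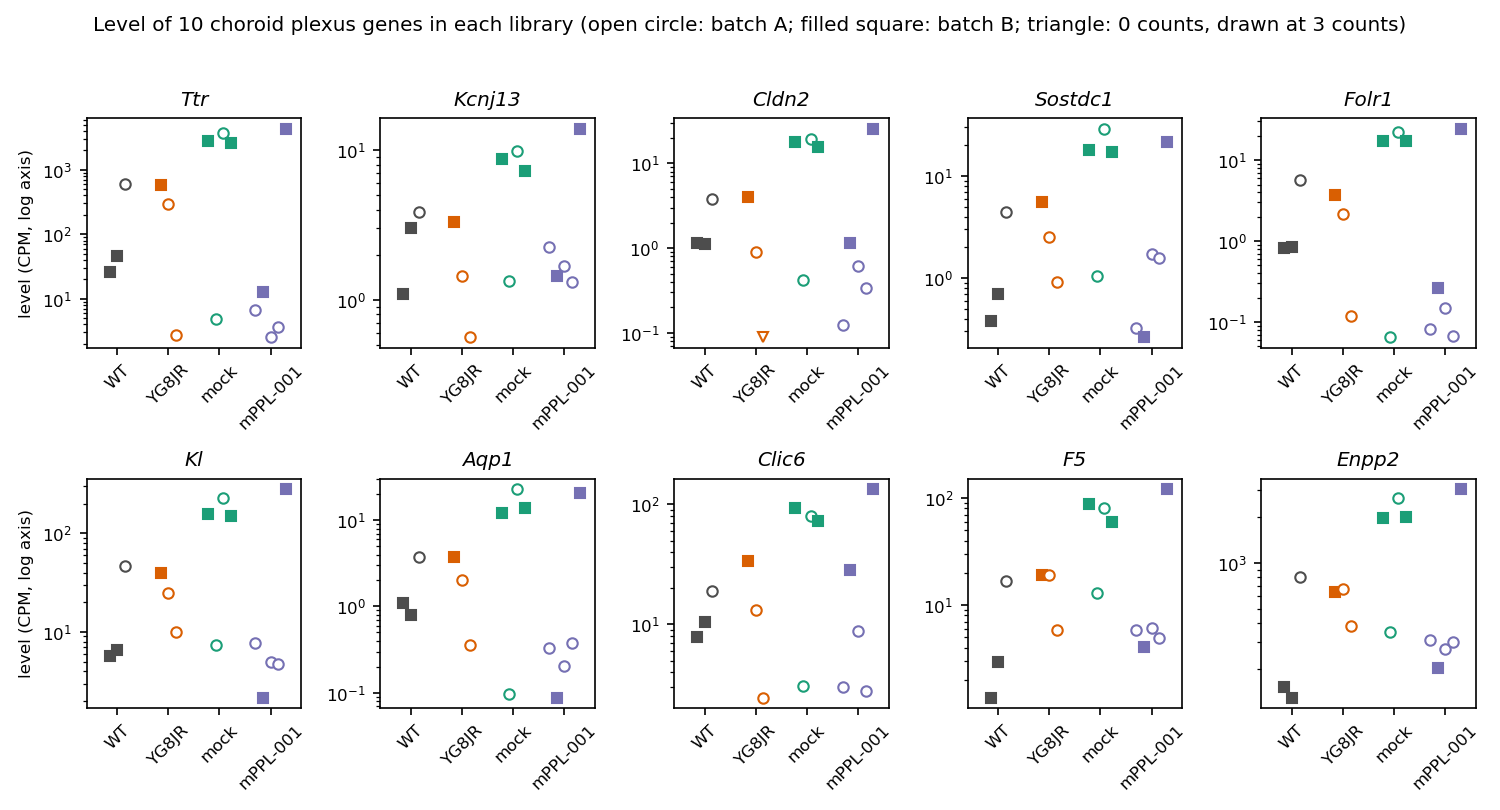
Level of each of the 10 genes in each of the 15 libraries, in CPM on a log scale, by group and batch. Replicate 5 of mPPL-001 and replicates 1, 3 and 4 of mock are the 4 highest libraries in every panel, and for Ttr they span 2558 to 4313 CPM.

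Genes of fluid and ion movement followed the same libraries. Aqp1 encodes the water channel of the epithelium's ventricular surface. It stood at 12.1, 0.0975, 22.9 and 13.7 CPM in mock replicates 1 to 4, at 0.327, 0.0878, 0.206, 0.372 and 20.8 CPM in mPPL-001 replicates 1 to 5, at 3.79, 2.03 and 0.355 CPM in YG8JR and at 1.10, 0.806 and 3.73 CPM in WT. The 4 libraries high in Ttr were the highest here too, with mock replicate 3 above mPPL-001 replicate 5, and the lowest libraries held 3 counts. Kcnj13, an inward-rectifier potassium channel, stood at 8.79, 1.33, 9.89 and 7.32 CPM in mock and at 2.25, 1.43, 1.68, 1.32 and 13.9 CPM in mPPL-001. It kept 1.10 to 3.86 CPM in WT and 0.563 to 3.31 CPM in YG8JR, so its whole range was 24.7-fold, against 1702-fold for Ttr. Its annotated exons share 623 bases with Gigyf2 on the opposite strand, and how strand was treated in counting is not given in the sources used here, so reads of that gene may be part of its level. Clic6, of the intracellular chloride channel family, stood at 93.9, 3.06, 80.8 and 73.3 CPM in mock and at 3.02, 28.5, 8.75, 2.81 and 134 CPM in mPPL-001. Replicate 2 of mPPL-001, low in Ttr, was the second highest of its group for Clic6, and YG8JR held 33.8, 13.3 and 2.46 CPM against 7.84, 10.5 and 19.0 CPM in WT.

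Cldn2 encodes claudin-2, the pore-forming claudin of leaky epithelia, and Folr1 the folate receptor alpha, which carries folate into the cerebrospinal fluid. Cldn2 had 0 counts in YG8JR replicate 3, and its highest library (mPPL-001 replicate 5, 25.5 CPM) was at least 287-fold higher than a floor of 3 counts in that library. Elsewhere Cldn2 stood at 17.6, 0.423, 19.3 and 15.5 CPM in mock, at 0.123, 1.14, 0.619 and 0.338 CPM in mPPL-001 replicates 1 to 4, at 4.0 and 0.898 CPM in YG8JR replicates 1 and 2, and at 1.16, 1.11 and 3.84 CPM in WT. Mock replicate 2 again lay with the low mPPL-001 libraries and not with its own group. Folr1 stood at 17.2, 0.0650, 22.4 and 17.1 CPM in mock and at 0.0817, 0.263, 0.147, 0.0677 and 24.4 CPM in mPPL-001. Mock replicate 2 and mPPL-001 replicates 1 and 4 held 2 Folr1 counts each, so no fold against them is given. YG8JR replicates stood at 3.67, 2.17 and 0.118 CPM and WT replicates at 0.821, 0.856 and 5.69 CPM. All of these but YG8JR replicate 3, which lay among the low transplanted libraries, fell between the high and the low ones.

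Secreted and cell-surface proteins made up the rest. Kl encodes klotho, the co-receptor for fibroblast growth factor 23, which is also shed from the cell surface. It stood at 157, 7.35, 228 and 149 CPM in mock, at 7.76, 2.17, 4.98, 4.77 and 281 CPM in mPPL-001, at 40.0, 25.0 and 9.92 CPM in YG8JR and at 5.68, 6.60 and 46.3 CPM in WT. Its range of 130-fold ran between replicates 5 and 2 of mPPL-001. Sostdc1, a secreted antagonist of bone morphogenetic protein and Wnt signals, ranged 110-fold, from 0.263 CPM in mPPL-001 replicate 2 to 28.9 CPM in mock replicate 3. F5 encodes coagulation factor V, better known from liver and platelets, and ranged 88.4-fold, from 1.37 CPM in WT replicate 1 to 121 CPM in mPPL-001 replicate 5. Mock replicate 2 held 12.8 CPM of F5, more than any of mPPL-001 replicates 1 to 4 (4.10 to 6.10 CPM).

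Enpp2 encodes autotaxin, the secreted enzyme that makes lysophosphatidic acid. It is also a gene of myelinating oligodendrocytes. It stood at 1962, 351, 2644 and 1992 CPM in mock and at 313, 205, 270.2, 303 and 3033 CPM in mPPL-001. YG8JR held 646, 675 and 384 CPM and WT 154, 130.4 and 811 CPM. No library fell under 130.4 CPM and the range was 23.3-fold, the narrowest of the 7 genes for which a fold is given. Summed markers of mature oligodendrocytes ran from 2713 CPM in WT replicate 2, the lowest library for Enpp2 too, to 13368 CPM in YG8JR replicate 2. Their part in the Enpp2 level was not tested. Enpp2 and F5 also share exon bases with an opposite-strand noncoding gene each (345 with Gm26684 and 262 with Gm16548).

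Mock replicate 2 was the lowest library of its group and mPPL-001 replicate 5 the highest of its group for all 10 genes. Summed over the 10 genes, the 4 libraries named above held 4903 to 7988 CPM and the other 11 held 199.6 to 1512 CPM. These 4 were also the 4 highest for each of the 10 genes taken singly. Over all genes tested, the same 4 libraries were the 4 highest for 190 genes (0.76%). The 4 were picked by their levels of these genes, so no test was made between them and the rest. They come from both transplanted groups and from both batches (mPPL-001 replicate 5 and mock replicates 1 and 4 from B, mock replicate 3 from A).

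Set against Ttr, some genes kept a nearly fixed proportion and others did not. Ttr was over 200 CPM in 7 libraries, the 4 above with YG8JR replicates 1 and 2 and the library labelled WT replicate 3. In these, Kl stood at 56.0 to 86.3 CPM per 1000 CPM of Ttr, a 1.54-fold range, while its level ranged 11.2-fold. Aqp1 (4.32 to 6.99), Folr1 (5.65 to 9.52) and Sostdc1 (5.0 to 9.53 per 1000) were spread by 1.62-, 1.69- and 1.91-fold. Cldn2 ranged from 3.10 to 6.94 per 1000, with YG8JR replicate 2 as the lowest. Enpp2 stood at 700 to 779 per 1000 in the 4 highest libraries and at 1121, 2328 and 1357 in YG8JR replicates 1 and 2 and the library labelled WT replicate 3. Kcnj13 likewise stood at 2.63 to 3.23 in those 4 and at 4.99 to 6.47 in the other 3. Clic6 (21.5 to 58.7) and F5 (21.5 to 65.8 per 1000) had their highest proportions in untreated YG8JR, in replicate 1 and replicate 2.

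**Figure D2:**
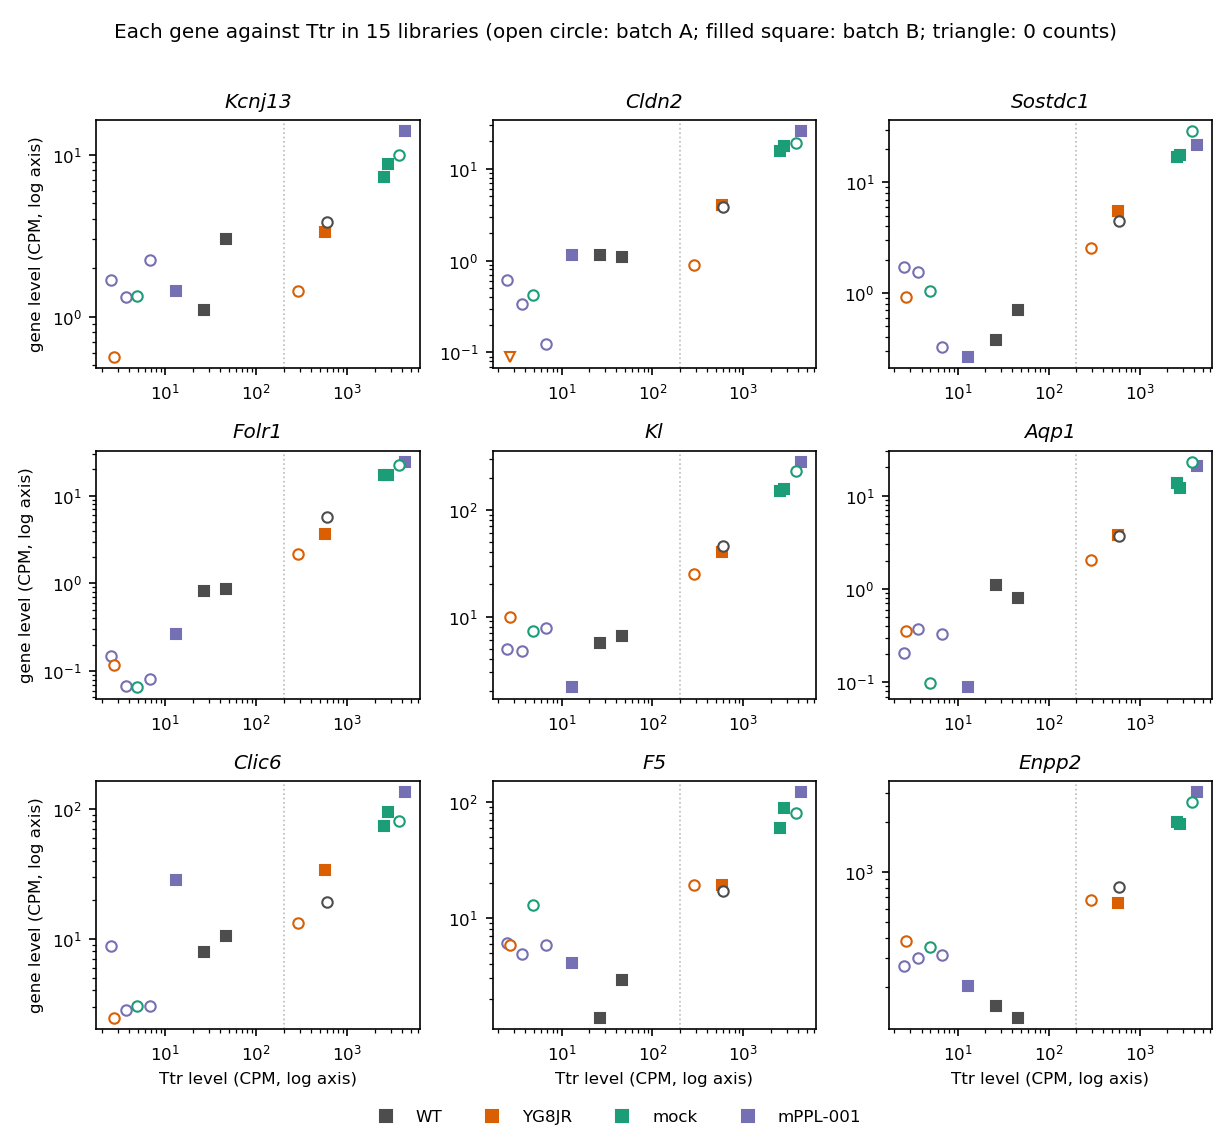
Level of each of the other 9 genes against the level of Ttr in the 15 libraries, both in CPM on log scales. Enpp2 flattens at low Ttr and does not go under 130.4 CPM, while Folr1 and Aqp1 go on falling to under 0.1 CPM.

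In the 8 libraries with Ttr under 200 CPM (2.53 to 46.2 CPM), the genes parted further. Enpp2 kept 130.4 to 384 CPM, Clic6 2.46 to 28.5 CPM, F5 1.37 to 12.8 CPM and Kl 2.17 to 9.92 CPM. Folr1 kept 0.0650 to 0.856 CPM and Aqp1 0.0878 to 1.10 CPM. The order within these libraries was not that of Ttr. WT replicates 1 and 2, highest of the 8 in Ttr, Folr1 and Aqp1, were the lowest in Enpp2, and WT replicate 1 was also the lowest in F5. Otx2, the homeodomain factor of the choroid plexus that granule cell precursors also use, differed among these 8 libraries. It had 8.25 and 14.9 CPM in WT replicates 1 and 2 and 6.70, 8.75 and 10.1 CPM in mPPL-001 replicates 2, 3 and 4. It had 0.368, 0.423 and 0.118 CPM in mPPL-001 replicate 1, mock replicate 2 and YG8JR replicate 3. The 4 highest libraries held 16.2 to 29.1 CPM.

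By group, the mean level was highest in mock for 10 of 10 genes and second in mPPL-001 for 10 of 10. The medians gave another order, as mPPL-001 had the lowest median for 6 of 10. For Ttr, mock averaged 2280 ± 1603 CPM (SD, n = 4, median 2679), mPPL-001 868 ± 1926 (n = 5, median 6.74), YG8JR 290 ± 287 (n = 3, median 290.0) and WT 223 ± 324 CPM (n = 3, median 46.2). For Ttr, in each group but mock, the standard deviation was close to the mean or above it. Neighbours in the order of the means did not differ beyond that spread, and every pair of groups compared overlapped for all 10 genes. Of all genes tested, groups did not overlap for 18.5% in YG8JR against WT, 2.36% in mock against YG8JR, 2.08% in mPPL-001 against YG8JR and 0.696% in mPPL-001 against mock.

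The comparison of untreated YG8JR with WT asks how the model differs without a transplant. Of the 10 genes, 0 were called by edgeR's quasi-likelihood test at a Benjamini-Hochberg adjusted p under 0.05, against 0.172% of all genes tested (39 higher, 4 lower). The log2 fold changes were positive for 5 and ran from -1.10 for Cldn2 to 0.87 for F5, with a median of -0.08. For Ttr it was -0.51 (SE 2.70, edgeR adjusted p = 0.910). Unadjusted, 0 of the 10 had a p under 0.05 against 26.4% of all genes, and DESeq2 called 0. The result turned on single libraries. Without the library labelled WT replicate 3, all 10 fold changes were positive, from 0.54 to 6.18, with 0 called and a lowest edgeR adjusted p of 0.102 (for F5), while 4095 genes of 25964 were called in that fit. Within batch A all 10 were negative (-3.08 to -0.44) and within batch B all 10 were positive (0.70 to 3.99), each resting on a lone library in 1 group. The difference between the batches was 2.64 to 6.02 and did not pass the interaction test for any gene (lowest unadjusted p 0.132, edgeR adjusted p = 0.999).

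Mock against untreated YG8JR addresses irradiation and transplant of unedited cells. All 10 fold changes were positive, from 1.52 for Enpp2 to 3.40 for Cldn2, with a median of 2.45 against -0.02 over all genes. By edgeR 0 of 10 were called, against 0.036% of all genes. Unadjusted, 1 of the 10, Kcnj13, had a p under 0.05, against 1.47% of all genes. Kcnj13 averaged 1.77 ± 1.40 CPM (SD, n = 3) in YG8JR and 6.83 ± 3.82 CPM (SD, n = 4) in mock, a log2 fold change of 1.96 (SE 0.85, edgeR adjusted p = 1). DESeq2 called 0, and 2 had an unadjusted p under 0.05, with no share over all genes given for that tool. Standard errors of the 10 genes ran from 0.85 to 2.73, against a median of 0.33 over all genes. Without mock replicate 3, of batch A, the median was 0.69 and Ttr turned from 3.13 to -1.81, while the other 9 stayed positive. Within batch A the changes were 1.50 to 4.44 and within batch B 1.28 to 2.22, positive for all 10 genes in each. Batch B held 1 untreated YG8JR library. In batch A, Ttr stood at 3757 CPM in mock replicate 3 but 4.91 CPM in mock replicate 2. It stood there at 290.0 and 2.72 CPM in YG8JR replicates 2 and 3, so the 2 batches are not taken as repeats.

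mPPL-001 was compared with untreated YG8JR and with mock, and the second comparison addresses the editing apart from the transplant. Against YG8JR all 10 fold changes were positive, from 0.32 to 1.28 with a median of 0.54, and 0 were called by edgeR against 0.032% of all genes. Unadjusted, 0 of 10 had a p under 0.05 against 3.7% of all genes, and DESeq2 called 0. Without mPPL-001 replicate 5, 9 of 10 were negative and the median was -1.66. Within batch A 9 of 10 were negative (-5.09 to 0.79). Within batch B, where YG8JR had 1 library, all 10 were positive (0.98 to 1.91). A fit of the 2 groups alone had 7 of 10 negative, with a median of -0.24. Against mock all 10 were negative, from -2.58 for Ttr (SE 2.64) to -0.89 for Kcnj13 (SE 0.70), with a median of -1.86. Here edgeR called 0 of the 10 and 0% of all genes, DESeq2 called 0 of the 10, and unadjusted 0 of 10 had a p under 0.05 against 1.94% of all genes. Without mPPL-001 replicate 5 all 10 were lower by 1.89 to 8.38 on the log2 scale. That library was the highest of its group for all 10 genes, so its removal widens the gap by construction and unadjusted p-values are not read. In that fit 0 of the 10 were called (lowest edgeR adjusted p 0.495), and 0 of all 24994 genes. Without mock replicate 3 the median was -0.66. Within batch A the fold changes were -8.78 to -1.68 and within batch B -0.68 to -0.04. The interaction of group and batch passed for 0 of 10 (lowest unadjusted p 0.0600). These comparisons share control libraries, YG8JR in 3 of the 4 and mock in 2.

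**Figure D3:**
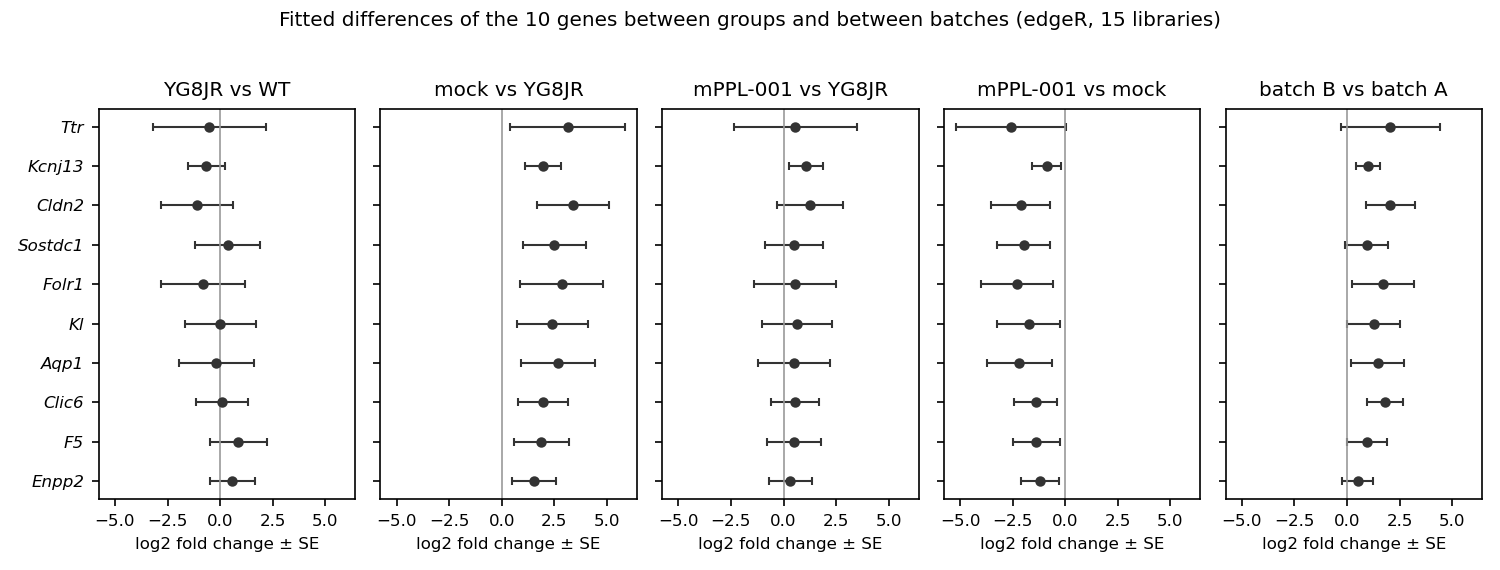
Log2 fold change of each of the 10 genes in the 4 group comparisons and between batches, with the standard error as bars, from the edgeR fit of all 15 libraries. All 10 lie above 0 for mock against YG8JR and below 0 for mPPL-001 against mock, and 0 of 10 were called in any of them.

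Between batches, B was higher than A in the fit for all 10 genes, by 0.52 for Enpp2 to 2.07 for Cldn2 on the log2 scale, with 0 called by edgeR against 32% of all genes and 0 by DESeq2. Unadjusted, 0 of 10 had a p under 0.05 by edgeR, against 41.1% of all genes. By DESeq2 it was 2 of 10, with no share over all genes given. The batches overlapped for all 10 genes, and did not overlap for 12.5% of all genes. Clic6 had the smallest p (1.81, SE 0.84, edgeR adjusted p = 0.126). Both batches held low and high libraries, with Ttr from 2.53 to 3757 CPM in A and from 13.0 to 4313 CPM in B. In a fit that added the mean log2 level of 48 other choroid plexus genes as a covariate, 2 of 10 were called higher in B, against 32.6% of all genes, and 4 of 10 had negative differences. The negative ones were Sostdc1 (-0.34), Kl (-0.20), F5 (-0.28) and Enpp2 (-0.39), none called. The 2 called were Cldn2 (1.26, SE 0.39, edgeR adjusted p = 0.0237) and Clic6 (1.48, SE 0.38, edgeR adjusted p = 0.0110). Clic6 was also called without mock replicate 3 (2.64, edgeR adjusted p = 0.0364) and without the library labelled WT replicate 3 (2.60, edgeR adjusted p = 0.0445). The share over all genes is not given for those fits, so these calls are not read as particular to Clic6. Without mPPL-001 replicate 5, of batch B, 0 of 10 were called and 5 were negative (Sostdc1 -0.45, Kl -0.48, Aqp1 -0.13, F5 -0.33 and Enpp2 -0.47), and Ttr stood at 0.35 in place of 2.06.

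The same covariate narrowed the group comparisons. It is built from choroid plexus genes in the same libraries, so it takes up by construction the variation that the 10 genes share with them. The median standard error of the 10 genes fell to 0.45 from 1.62 for YG8JR against WT, to 0.47 from 1.58 for mock against YG8JR, to 0.42 from 1.47 for mPPL-001 against YG8JR and to 0.46 from 1.33 for mPPL-001 against mock. Median fold changes were then -0.39, -0.38, -0.50 and -0.11 in that order. By edgeR 0 of 10 were called in any of the 4, with lowest adjusted p-values of 0.199, 0.988, 0.824 and 1. Of all 24989 genes, these fits called 25, 9, 8 and 0. For the unadjusted counts that follow, no share over all genes is given, so they are not read as particular to the 10. Unadjusted, 3 genes (Kcnj13, Cldn2 and Folr1) had a p under 0.05 in YG8JR against WT, and 0 in mPPL-001 against mock. Ttr, Folr1, Kl and Aqp1 had an unadjusted p under 0.05 in mock and in mPPL-001 against YG8JR, where the log2 fold changes of Ttr were -2.34 and -2.37.

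Of the 48 other choroid plexus genes, sorted into 7 lists by role, all 48 were tested and 0 were called by edgeR or DESeq2 in the 4 group comparisons. Unadjusted, 3, 5, 0 and 2 of the 48 had a p under 0.05 by edgeR, against 26.4%, 1.47%, 3.7% and 1.94% of all genes. No share over all genes is given for DESeq2, so its counts are not read as particular to the 48. By DESeq2 the unadjusted p was under 0.05 for 3, 11, 1 and 3 of the 48, all in the order given next. Their median log2 fold change was 0.28 for YG8JR against WT (36 of 48 positive), 1.35 for mock against YG8JR (44 of 48), 0.38 for mPPL-001 against YG8JR (36 of 48) and -0.89 for mPPL-001 against mock (2 of 48). Between batches edgeR called 5 of the 48 higher in B and 2 lower, with a median of 0.68, against 32% of all genes called in either direction. Slc4a10, a sodium bicarbonate transporter, was higher by 1.09 (SE 0.15). It held 394 CPM in mPPL-001 replicate 2, where Ttr stood at 13.0 CPM. Htr2c, a serotonin receptor that neurons also express, was lower by 2.17 (SE 0.46). The 4 libraries highest in the 10 genes were also the 4 highest for 35 of the 48, among them all 5 junction and keratin genes and all 3 transcription factors. Of 5 receptor genes 2 followed (Prlr and Lepr). Htr2c did not, and its highest library (196 CPM, mPPL-001 replicate 4) was among the lowest in Ttr.

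The 12 genes most like the 10 were sought among 14108 genes with a mean of at least 1 CPM. Likeness was the Pearson correlation with the mean z-scored log2(CPM + 0.5) of the 10 genes over 15 libraries. These libraries differed in depth and in markers of granule and brainstem neurons, and the part of either in the correlations was not tested. Kcne2, a potassium channel subunit, came first (r = 0.991, 0.0338 to 23.2 CPM), followed by the collagen gene Col8a2 (0.985) and Steap1, Prr32 and Car12 (all 0.977). Slc4a5, the sodium bicarbonate cotransporter of the epithelium's ventricular surface, had 0.976, and Oca2, Abca4, Mfrp, Tmem72, Rbm47 and Krt18 had 0.959 to 0.976. The choroid plexus lists held 8 of these 12. Within the 10 genes, the correlation with the mean of the other 9 ran from 0.892 for Clic6 to 0.984 for Folr1.

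Markers of tissues and cells that share some of these genes were looked at beside them. The liver, another source of Ttr and F5, had 6 markers that summed to 0.533 to 1.35 CPM in all 15 libraries. Among them Alb was at 0 to 0.410 CPM. Markers of the pineal gland summed to 0.419 to 1.38 CPM and those of the retinal pigment epithelium to 3.47 to 11.4 CPM, and none of either list had the same 4 highest libraries. Ependymal genes, of the ciliated lining of the ventricles, summed to 39.0 to 61.2 CPM in the 4 libraries highest in the 10 genes and to 12.1 to 37.5 CPM in the other 11. For 3 of 9 tested ependymal genes the same 4 libraries were the highest. Fibroblast genes of the meninges and stroma summed to 156 to 306 CPM in the 4 and to 51.1 to 213 CPM in the 11, where the ranges overlap, and 1 of 10, Slc13a4, had the same 4 highest. Markers of fenestrated endothelium summed to 244 to 322 CPM in the 4 and to 143 to 296 CPM in the 11. The part of liver, ependymal and stromal tissue in the levels of the 10 genes was not tested.

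**Figure D4:**
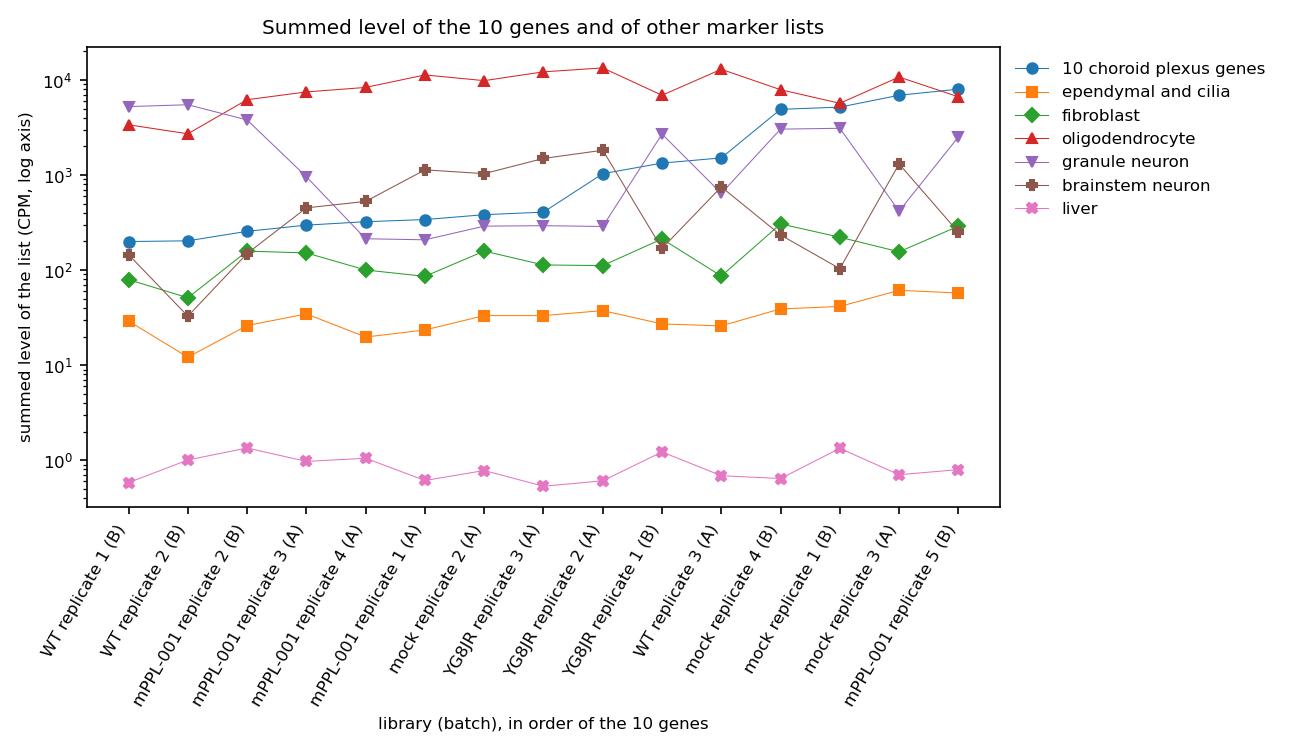
Summed level of the 10 genes and of marker lists in each of the 15 libraries, in CPM on a log scale, where lines only guide the eye. The 10 genes span 199.6 to 7988 CPM, while ependymal markers span 12.1 to 61.2 CPM and liver markers stay at 0.533 to 1.35 CPM.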

How the data were processed

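Per the labels' protocols, cerebellum was flash-frozen, its RNA was freed of ribosomal RNA, and libraries of a stranded kit were sequenced as paired ends. The authors deposited raw whole-number counts of reads per gene for each library. Per the submitters' processing notes, tools included STAR and the build GRCm39; what counted the reads, with which annotation and strand setting, was "not given in the sources used here". Symbols came from GENCODE M21 by identifier (99.4% of 55487 genes matched), which also gave exon lengths and overlaps. The 1 row that is no mouse Ensembl gene was left out, and its result is not reported here.

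Groups and batches were taken from the labels. Library totals set the depth, and 3 counts in a library correspond to 0.0794 to 0.151 CPM, depending on the library. No pair of libraries of 1 group was closer than a chi-square of 23.2 per gene, so none was counted as a copy. CPM used TMM-scaled library sizes. Genes were tested with edgeR (version 4.0.16, with limma 3.58.1 in R 4.3.3) by its quasi-likelihood method, with group means and a batch term over all 15 libraries, after the edgeR filter (minimum count 10, minimum total 15), with Benjamini-Hochberg adjustment over 24989 genes. The biological coefficient of variation was 0.332. The fits were also run on simulated counts, drawn without a batch effect and with each gene varying on its own. That run cannot show how the fits behave for genes that vary together, as these 10 do. DESeq2 1.42.0, other filters and normalizations, covariates, a replicate block, within-batch fits and leaving out each library were the alternatives. The 12 genes most alike were picked by Pearson's r on log2(CPM + 0.5). Up to 4 genes with the smallest p of any other list could be named; Otx2, Gabra6, Alb, Prlr, Lepr, Slc13a4 and Gigyf2 were named after their values or positions were seen. The 10 genes and all lists were chosen with earlier results of these data known.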

Additional observations from a re-analysis of the deposited data

Results flagged for a closer look

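In the mock group (n = 4) and the mPPL-001 group (n = 5), 16 of 20 gene and group pairs had 1 library far from the others, judged by Dixon's ratio, the gap to the nearest library over the range of the group on the log2(CPM + 0.5) scale. Chance gives about 1 such pair in 20, but the 10 genes vary together, so these pairs are not independent and repeat the same libraries.

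Mock replicate 2 was the low library in 8 genes. The ratio was 0.941 for Ttr (4.91 CPM), 0.836 for Kcnj13, 0.93 for Cldn2, 0.929 for Folr1, 0.874 for Kl, 0.831 for Aqp1, 0.925 for Clic6 and 0.852 for Enpp2. Replicate 5 of mPPL-001 was the high library in 8 genes. There the ratio was 0.795 for Ttr (4313 CPM), 0.801 for Kcnj13, 0.74 for Cldn2, 0.922 for Folr1, 0.757 for Kl, 0.89 for Aqp1, 0.889 for F5 and 0.843 for Enpp2. Groups of 3 libraries were not examined in this way.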

How the results depend on the processing

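None of the 10 genes was called in a group comparison under any of 26 settings (15 that leave out a library and 11 others, lowest edgeR adjusted p 0.102). Of 1040 gene values, 931 kept their sign and 109 did not; the cause was not tested. DESeq2 called 0 of the 10 as well, but 2163 genes of the whole table in YG8JR against WT where edgeR called 43. For the other comparisons the whole-table counts were 15 against 9 for mock with YG8JR, and 21 against 8 for mPPL-001 with YG8JR. The replicate numbers of the labels did not pair libraries, as 11 of 19 same-numbered pairs had correlated deviations over 0.1 (range -0.75 to 0.87) and all 11 lay in the same batch.

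The median of the 10 genes moved by more than the spread between libraries in these cases, given with the whole range over left-out libraries. For YG8JR against WT it was 2.16 within batch B and, with a library left out, -0.69 to 2.96 (the highest without WT replicate 3). For mock against YG8JR it was -0.38 with the choroid plexus covariate, while no left-out library moved it beyond the spread (0.69 to 2.83). In mPPL-001 against YG8JR the replicate block gave -2.14, and leaving out a library gave -1.66 to 1.02. In mPPL-001 against mock the replicate block gave -3.75, batch A alone gave -3.98, and leaving out a library gave -4.30 to -0.66. Between batches 2 genes were called with the covariate and 0 to 1 with a library left out. The share over all genes is not given for the fits with a library left out. By Spearman's rho, 6 of the 12 most alike genes were shared.

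Sign changes in YG8JR against WT were Kl -0.089 and Clic6 -0.040 with the stricter filter, Kl -0.0083 with DESeq2, Ttr 0.37 and Aqp1 0.11 without a batch term, and Ttr 1.57, Cldn2 0.47, Folr1 0.86 and Aqp1 0.62 with the replicate block. The choroid plexus covariate gave Kl -0.052 and Clic6 -0.19, the region covariate Kl -0.58, and a fit of the 2 groups alone Ttr 0.96, Folr1 0.061 and Aqp1 0.13. Batch A alone gave Sostdc1 -1.36, Kl -1.40, Clic6 -1.28, F5 -0.44 and Enpp2 -0.61, and batch B alone Ttr 3.99, Kcnj13 0.70, Cldn2 1.81, Folr1 2.13 and Aqp1 1.98. In mock against YG8JR the covariate gave Ttr -2.34, Sostdc1 -0.47, Folr1 -1.51, Kl -0.78, Aqp1 -1.28, Clic6 -0.29 and Enpp2 -0.29.

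In mPPL-001 against YG8JR the replicate block gave Ttr -5.56, Cldn2 -1.55, Sostdc1 -2.57, Folr1 -4.21, Kl -2.84, Aqp1 -3.73, Clic6 -0.91, F5 -1.72 and Enpp2 -1.32. The covariate gave Ttr -2.37, Sostdc1 -0.63, Folr1 -1.92, Kl -0.95, Aqp1 -1.43, F5 -0.37 and Enpp2 -0.27. A fit of the 2 groups alone gave Ttr -3.85, Folr1 -1.53, Kl -0.63, Aqp1 -0.79, Clic6 -0.032, F5 -0.30 and Enpp2 -0.19. Batch A alone gave Ttr -5.09, Cldn2 -0.27, Sostdc1 -0.51, Folr1 -3.45, Kl -1.59, Aqp1 -1.98, Clic6 -0.68, F5 -1.15 and Enpp2 -0.84. In mPPL-001 against mock the covariate gave Kcnj13 0.30, Clic6 0.61 and Enpp2 0.015.

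With a library left out, YG8JR against WT ranged from -3.24 to 6.18 for Ttr, -1.15 to 0.54 for Kcnj13, -1.80 to 1.76 for Cldn2, -0.29 to 3.43 for Sostdc1, -1.92 to 3.03 for Folr1, -0.62 to 3.57 for Kl, -0.82 to 2.48 for Aqp1 and -0.51 to 2.17 for Clic6. Mock against YG8JR ranged from -1.81 to 5.57 for Ttr. mPPL-001 against YG8JR ranged from -5.35 to 1.52 for Ttr, -1.18 to 2.09 for Cldn2, -1.81 to 1.00 for Sostdc1, -3.63 to 1.25 for Folr1, -2.51 to 1.18 for Kl, -3.07 to 0.96 for Aqp1, -0.51 to 1.01 for Clic6, -1.51 to 1.01 for F5 and -1.10 to 0.63 for Enpp2.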
